A study of Mus musculus with 10 samples.

Results

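The genes of the Hoxd cluster were followed while mouse embryonic stem cells became neuromesodermal progenitors and were then exposed to the growth factor Gdf11. The 9 protein-coding Hoxd genes (Hoxd1, Hoxd3, Hoxd4, Hoxd8, Hoxd9, Hoxd10, Hoxd11, Hoxd12 and Hoxd13) were taken by their symbols from a count table of 52459 symbols, and all 9 were found. The cells were wild-type ES-Bruce4 cells, an embryonic stem cell line of the C57BL/6 strain that had been kept on embryo fibroblast feeders, which were depleted once before differentiation. All 5 groups received bFgf at 10 ng/ml from day 0 in N2B27 medium, CHIR99021, an inhibitor of Gsk3 that activates Wnt signalling, entered the protocol at 5 µM on day 2, and cells were split on day 3. D2 (day 2, labelled as epiblast stem cells), D3 (day 3), D6 (day 6) and D7 (day 7) were collected along this course. D7G was day 7 after 24 h with human Gdf11 at 50 ng/ml, added on day 6, and D7 is its untreated control at the same age. D3, D6, D7 and D7G are labelled as neuromesodermal progenitors. Each group had 2 libraries of total RNA from 1 cell line. The labels do not say whether these came from separate cultures. The p-values therefore rest on spread within groups, pooled over the 5 groups, that may be technical. B27 was used with or without vitamin A, the source of retinoic acid, and which group had which was not given.

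Hox genes encode homeodomain transcription factors that give cells their position along the head-to-tail axis. Within a cluster they lie in the order in which they act, with low-numbered genes switched on first and used in anterior regions and high-numbered genes last and used in the trunk end and tail. The Hoxd cluster is also used a second time in limbs, digits and genitalia. Gdf11 is a TGF-beta family ligand of the tail bud that signals through activin-type receptors and Smad2 and Smad3, and it is known for its part in the passage from trunk to tail.

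The 10 libraries held 31078950 to 33418015 counts. Replicates correlated at 0.995 to 0.9957, and in no group did they agree as closely as sampling noise alone would allow (mean chi-square per gene 1.91 to 4.18, highest in D7G). The labelled cell states were checked on marker lists. Summed levels of 12 neuromesodermal and caudal epiblast genes were 181 to 190 CPM (counts scaled to library size) on D2 and 1245 to 1265 on D3, 702 to 713 on D6, 467 to 474 on D7 and 383 to 398 in D7G. Sox2, 1 of the 12, made up 167 and 159 CPM of this sum on D2 and 178 and 166 on D3. It had 204 and 187 CPM on D6, 229 and 235 on D7, and 192 and 193 in D7G. T, a mesodermal and neuromesodermal regulator, was at 20.3 and 19.3 CPM on D7 beside 228.9 and 234.6 CPM of Sox2, its neural counterpart. Both defining genes were thus still detected on D7, although T had been at 230.6 and 232.5 CPM on D3. Bulk RNA does not show whether the same cells held both. With Gdf11, embryo fibroblast genes rose from a summed 333 to 356 CPM on D7 to 1016 to 1185 in D7G, with 8 of 9 tested members called higher. Genes of lateral plate and hindlimb field rose from 124 to 132 to 330 to 332 CPM, with 7 of 10 called higher. Both counts stand beside 22.5% of all tested genes called higher in D7G against D7. Most of the rise in the lateral plate sum came from Prrx1 (log2 fold change 2.08 ± 0.07). In bulk RNA a change in the share of cells that use a gene cannot be told apart from a change in RNA per cell.

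The cluster spans 96.8 kb of chromosome 2 (mm10), from 74668310 to 74765142, with all 9 genes on the plus strand in the order Hoxd13, Hoxd12, Hoxd11, Hoxd10, Hoxd9, Hoxd8, Hoxd4, Hoxd3, Hoxd1. Hoxd13 (chr2:74668310-74671599) is at the posterior end, next to Evx2 and Lnpk, and Hoxd1 (chr2:74762980-74765142) is at the anterior end, towards Mtx2. Between them lie Hoxd12 (chr2:74675013-74677705), Hoxd11 (chr2:74679557-74687016), Hoxd10 (chr2:74691924-74695105), Hoxd9 (chr2:74697727-74700208) and Hoxd8 (chr2:74704615-74707933). Hoxd4 (chr2:74711929-74729160) and Hoxd3 (chr2:74711927-74748442) start 2 bases apart in the authors' gene model and overlap. Of the exon bases of Hoxd3, 62.35% are shared on the same strand with Hoxd4 or the noncoding Gm28230, and of those of Hoxd4 52.31% with Hoxd3 or Gm28230. Opposite the antisense RNAs Hoxd3os1 or Haglr lie 8.78% of the exon bases of Hoxd3 and 11.8% of those of Hoxd4, which may be among the bases already counted. Hoxd10 and Hoxd11 share 5.73% and 10.8% with the noncoding Gm28309, and Hoxd1, Hoxd8, Hoxd9, Hoxd12 and Hoxd13 share none. How the authors' counting treated shared bases and strand is not given in the sources used here, so levels of Hoxd3 and Hoxd4 are uncertain. In the second deposited count table, whose Hoxd4 model of 2323 exon bases is shared in full with other genes, Hoxd4 is listed at 0 in all 10 libraries, and no Hoxd4 change could be computed there.

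Promoters are shown for the 3 genes with the largest rises with Gdf11 (Hoxd13, Hoxd12 and Hoxd11) and for Hoxd4, which did not pass the test with Gdf11 and whose window holds the most matches to a Cdx motif. Each is the 250 bases before a gene start in RefSeq on GRCm38.p6, plus strand, 5′ to 3′. Capitals mark TTTATG or TTTATT on either strand, the letters that Cdx proteins, caudal regulators of Hox genes, are known to prefer.
Hoxd13, chr2:74667975-74668224: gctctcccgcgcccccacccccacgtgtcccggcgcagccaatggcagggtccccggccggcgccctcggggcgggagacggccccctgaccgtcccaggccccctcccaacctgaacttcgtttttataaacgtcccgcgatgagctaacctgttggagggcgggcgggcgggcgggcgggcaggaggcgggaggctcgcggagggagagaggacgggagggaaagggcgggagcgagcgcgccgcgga
Hoxd12, chr2:74674763-74675012: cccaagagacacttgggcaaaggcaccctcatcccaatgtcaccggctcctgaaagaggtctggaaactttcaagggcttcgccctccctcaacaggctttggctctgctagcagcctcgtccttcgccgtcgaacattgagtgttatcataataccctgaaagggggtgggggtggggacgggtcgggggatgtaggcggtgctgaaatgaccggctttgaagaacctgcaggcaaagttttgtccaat
Hoxd11, chr2:74679308-74679557: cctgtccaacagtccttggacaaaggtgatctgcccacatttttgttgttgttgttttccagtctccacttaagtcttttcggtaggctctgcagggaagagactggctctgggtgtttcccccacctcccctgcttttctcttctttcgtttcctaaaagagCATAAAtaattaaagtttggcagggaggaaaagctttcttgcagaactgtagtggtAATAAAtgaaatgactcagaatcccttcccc
Hoxd4, chr2:74721728-74721977: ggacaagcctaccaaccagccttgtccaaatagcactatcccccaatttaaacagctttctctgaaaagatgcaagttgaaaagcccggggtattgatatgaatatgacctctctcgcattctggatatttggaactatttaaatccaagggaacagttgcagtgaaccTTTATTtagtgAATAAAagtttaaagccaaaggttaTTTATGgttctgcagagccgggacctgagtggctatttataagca
The Hoxd13 window was 74.4% G and C with 31 CpG dinucleotides and the Hoxd12 window 55.6% with 10. The Hoxd11 window shown was 44.8% with 2 and the Hoxd4 window 40.4% with 3, against a median G and C content of 52.4% over 32851 promoter windows. RefSeq gave 10 windows for the 9 genes, with a second one for Hoxd11 (chr2:74682073-74682322), which was 60.4% G and C with 20 CpG dinucleotides and no match to either Cdx motif. TTTATG was found in the windows of Hoxd3, Hoxd4 and the first of Hoxd11, 3 of 10 against 10.8% of all windows, and TTTATT in those of Hoxd4 and the first of Hoxd11, 2 of 10 against 18.1%. AGGTCA, the core element of many nuclear receptors, was found in 4 of 10 (Hoxd3, Hoxd4, Hoxd8 and Hoxd10) against 14.0%, and in Hoxd3 it overlaps the TTTATG match. CAGACA, a Smad-type element, was in 0 of 10 against 17.1%, and GTCTAGAC, a palindromic Smad site, in 0 of 10 against 0.167%. TCAAGGTCA, the extended element of receptors such as Nr6a1, which contains AGGTCA, was in 0 of 10 against 0.387%. Retinoic acid type elements, read as AGGTCA or AGTTCA repeated after a spacer of 5 bases, were in 0 of 10 against 0.00913% and 0.0213%. Both strands were searched, and these are matches of letters in windows, with no measurement of binding.

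On D2 the cluster was close to silent except for its last gene. Hoxd13 had 35 and 45 counts (1.15 and 1.48 CPM), more than any other member in both libraries. Hoxd8 followed with 17 and 17 counts and Hoxd1 with 15 and 6. Hoxd9 had 4 and 10 counts, Hoxd12 had 3 and 6, Hoxd4 had 5 and 2, Hoxd10 had 2 and 4, Hoxd11 had 3 and 0, and Hoxd3 had 0 in both. A count of 0 in both D2 libraries allows up to 0.0493 CPM (3 counts over the group), a limit that covers counting error only. Per length (reads scaled by library size and gene length, RPKM), Hoxd13 was at 0.462 and 0.597 and the ranges of Hoxd13 and Hoxd8 did not overlap, whereas each lower neighbour in the order, from Hoxd8 down, overlapped the next. The whole cluster summed to 2.75 and 2.96 CPM.

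On D3, 1 day after CHIR99021 entered the protocol, the anterior and middle genes had risen and the posterior ones had barely begun. Of the 9 members, 8 rose from D2 to D3 (edgeR quasi-likelihood test, adjusted p under 0.05), beside 29.6% of all 18818 tested genes called higher and 28.9% called lower. All 9 members passed the filter on low counts. The median log2 fold change of the members was 3.45, beside 0.00 over all tested genes. Hoxd9 rose from 0.131 and 0.329 CPM to 7.75 and 9.31 CPM, a log2 fold change of 5.19 ± 0.25 (SE). Hoxd4 rose from 0.164 and 0.0659 to 2.42 and 2.59 CPM, by 4.40 ± 0.37, and Hoxd1 from 0.491 and 0.198 to 5.58 and 5.55 CPM, by 4.00 ± 0.22. Hoxd8 rose from 0.557 and 0.560 to 6.07 and 6.20 CPM, by 3.45 ± 0.17. These 4 genes lie within paralogue groups 1 to 9. Hoxd3 went from 0 counts to 36 and 25, at least 19.0-fold higher if the D2 group is given 3 counts in all.

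The 4 posterior genes moved less over this day. Hoxd13 went from 35 and 45 counts to 74 and 60, a log2 fold change of 0.65 ± 0.22 (edgeR quasi-likelihood test, Benjamini-Hochberg adjusted p = 0.0145). Hoxd10 went from 2 and 4 counts to 19 and 9, a ratio of 4.37 (95% counting interval 1.77 to 12.9). Hoxd11 went from 3 and 0 to 11 and 5, a ratio of 4.99 (1.43 to 26.7). All 3 were called higher, but on few counts, and all 3 calls rested on single libraries. Without D3 replicate 1 the adjusted p of Hoxd10, Hoxd11 and Hoxd13 was 0.104, 0.197 and 0.124 in edgeR's quasi-likelihood test. Without D2 replicate 1 it was 0.0616 for Hoxd10 and 0.142 for Hoxd13, and without D2 replicate 2 it was 0.175 for Hoxd11. The log2 fold change of Hoxd11 was 6.00 without D2 replicate 1 and 1.29 without D2 replicate 2. Hoxd12 was not called (3 and 6 counts on D2, 3 and 0 on D3, log2 fold change -1.60 ± 0.90, edgeR adjusted p = 0.135), although it was called lower without D3 replicate 1, at -5.28 with adjusted p = 0.0231, where the remaining D3 library has 0 counts. Single D2 libraries also set the size of 3 larger rises. Without D2 replicate 1 the log2 fold change was 4.79 for Hoxd1 and 5.17 for Hoxd4, and without D2 replicate 2 it was 5.98 for Hoxd9.

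**Figure D1:**
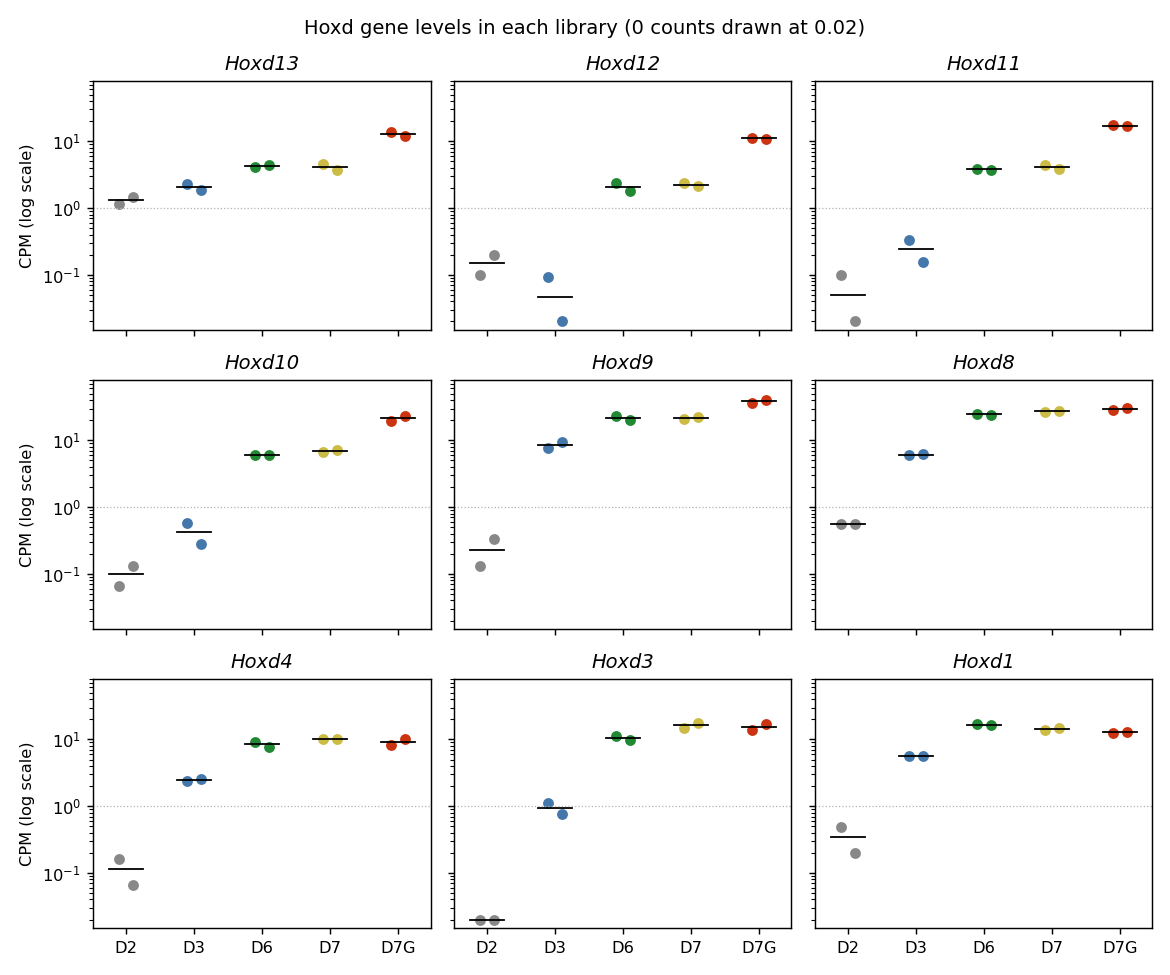
CPM of each Hoxd gene in every library (points, log axis, 0 counts drawn at 0.02) with the group mean (line), ordered from the posterior gene Hoxd13 to the anterior gene Hoxd1; the dotted line is 1 CPM. Hoxd13 alone is above 1 CPM in both D2 libraries, and only Hoxd9 to Hoxd13 show D7G points well above D7, such as 11.3 and 10.7 against 2.33 and 2.14 CPM for Hoxd12.

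From D3 to D6 all 9 members rose (edgeR, adjusted p under 0.05), beside 32.4% of tested genes called higher and 33.3% called lower, with a median log2 fold change of 2.00 beside -0.01 over all tested genes. The largest rises were now among the posterior genes. Hoxd12 went from 3 and 0 counts to 74 and 56, a ratio of 45.4 with a 95% counting interval of 15.2 to 223. Hoxd11 went from 0.337 and 0.154 CPM to 3.89 and 3.68 CPM, by 3.92 ± 0.28 on the log2 scale, and Hoxd10 from 0.582 and 0.278 to 5.99 and 5.97 CPM, by 3.78 ± 0.23. Without D3 replicate 1 these 3 log2 fold changes were 9.08 for Hoxd12, 4.58 for Hoxd11 and 4.41 for Hoxd10, and without D3 replicate 2 that of Hoxd12 was 4.46. Among the anterior genes Hoxd3 stood apart, rising from 1.10 and 0.771 to 11.3 and 9.65 CPM, by 3.48 ± 0.19. Hoxd8 rose by 2.00 ± 0.08 to 24.7 and 24.3 CPM, Hoxd4 by 1.74 ± 0.15 to 9.17 and 7.62 CPM, Hoxd1 by 1.57 ± 0.10 to 16.9 and 16.3 CPM and Hoxd9 by 1.34 ± 0.10 to 23.0 and 20.1 CPM. Hoxd13, already present earlier, had the smallest rise among the 9, from 2.27 and 1.85 to 4.18 and 4.36 CPM, by 1.05 ± 0.17. The cluster as a whole went from 26.5 ± 0.36 CPM on D3 to 97.6 ± 5.5 CPM on D6 (SD, n = 2).

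The onset of each gene was read as the first group in which both libraries reached 1 CPM. Hoxd13 passed this level on D2. Hoxd1, Hoxd4, Hoxd8 and Hoxd9 passed it on D3. Hoxd3, Hoxd10, Hoxd11 and Hoxd12 passed it on D6. The order was therefore anterior before posterior with 2 exceptions, Hoxd13 before all others and Hoxd3 after its neighbours. Hoxd3 sat near the line on D3 (1.10 and 0.771 CPM), and at 0.5 CPM its onset was D3 and that of Hoxd8 was D2. At 5 CPM the onset of Hoxd4 moved to D6, and Hoxd11, Hoxd12 and Hoxd13 first passed in D7G, never on untreated D6 or D7. No group lay between day 3 and day 6, so the order of the genes that appeared in that interval was not resolved.

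From D6 to D7 without Gdf11 the cluster changed little. Of the 9 members 1 rose and 0 fell (edgeR, adjusted p under 0.05), beside 20.5% of tested genes called higher and 15.6% called lower. Hoxd3 was that gene, going from 11.3 and 9.65 to 14.9 and 17.9 CPM, a log2 fold change of 0.65 ± 0.11 (edgeR adjusted p = 0.00022). Gm28230, a noncoding RNA that shares same-strand exon bases with Hoxd3, rose as well, from 55 and 54 to 128 and 120 counts, by 1.08 ± 0.18, and its part in the Hoxd3 value was not tested. The other 8 members lay between -0.21 and 0.27. Hoxd1, lower on D7 (16.9 and 16.3 against 14.0 and 14.6 CPM), had -0.21 ± 0.09 with adjusted p = 0.0673 in edgeR's test, and it was called lower under 9 of the alternatives. Hoxd10 to Hoxd13, the genes that Gdf11 raised over the same day, had values of 0.24, 0.12, 0.09 and -0.04, with standard errors of 0.13 to 0.20.

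After 24 h of Gdf11 the posterior end of the cluster was higher, and no gene from Hoxd8 to Hoxd1 passed the test. Relative to D7, 5 of 9 members rose and 0 fell (edgeR, adjusted p under 0.05), beside 22.5% of tested genes called higher and 18.2% called lower. The 5 were Hoxd9, Hoxd10, Hoxd11, Hoxd12 and Hoxd13, which are neighbours at 1 end of the cluster. The members' median log2 fold change was 0.82, beside 0.02 over all tested genes, and that of Hoxd10 to Hoxd13 was 1.85.

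Hoxd12, used in the hindmost trunk and the limb, rose from 2.33 and 2.14 CPM to 11.3 and 10.7 CPM, a log2 fold change of 2.30 ± 0.15 (4.92-fold, edgeR adjusted p = 3.64e-10). Only 0.872% of tested genes had a larger rise. Hoxd11, a gene of sacral vertebrae, kidney and forearm, went from 4.37 and 3.88 to 17.5 and 17.0 CPM, by 2.06 ± 0.12 (4.18-fold, edgeR adjusted p = 6.06e-11). Hoxd13, the most posterior member and a gene of digits and genitalia, went from 4.55 and 3.73 to 13.7 and 12.0 CPM, by 1.64 ± 0.12 (3.11-fold, edgeR adjusted p = 2.22e-09). Hoxd10, a gene of the lumbar cord and hindlimb, went from 6.79 and 7.29 to 19.4 and 23.5 CPM, by 1.61 ± 0.11 (3.05-fold, edgeR adjusted p = 5.08e-10). Hoxd9 went from 21.2 and 22.1 to 36.1 and 40.6 CPM, by 0.82 ± 0.08 (1.77-fold, edgeR adjusted p = 1.65e-07). All 5 were called higher under each alternative that kept both libraries of a group. With 1 library left out, the log2 fold change of Hoxd9, the least changed of the 5, stayed between 0.72 and 0.88. In all 5 genes both D7G libraries were above both D7 libraries. The same held for Hoxd8, which was not called, and the share of all tested genes separated in this way is not given here.

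The other 4 members did not pass the test. Hoxd8 was at 26.7 and 27.9 CPM on D7 and at 28.2 and 30.1 CPM in D7G, a log2 fold change of 0.10 with a 95% interval of -0.04 to 0.23. Hoxd4 was at 9.99 and 10.2 against 8.21 and 10.0 CPM, -0.15 (-0.39 to 0.09). Hoxd3 was at 14.9 and 17.9 against 14.1 and 16.8 CPM, -0.09 (-0.31 to 0.14), and its sign changed when either of 2 libraries was left out. Hoxd1 was at 14.0 and 14.6 against 12.57 and 12.97 CPM, -0.17 (-0.35 to 0.02). Each of these intervals excludes a rise as large as that of Hoxd9, the least changed of the posterior 5. The groups of Hoxd3 and Hoxd4 overlapped, and those of Hoxd1 and Hoxd8 did not. As above, the share of all tested genes separated in this way is not given here.

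**Figure D2:**
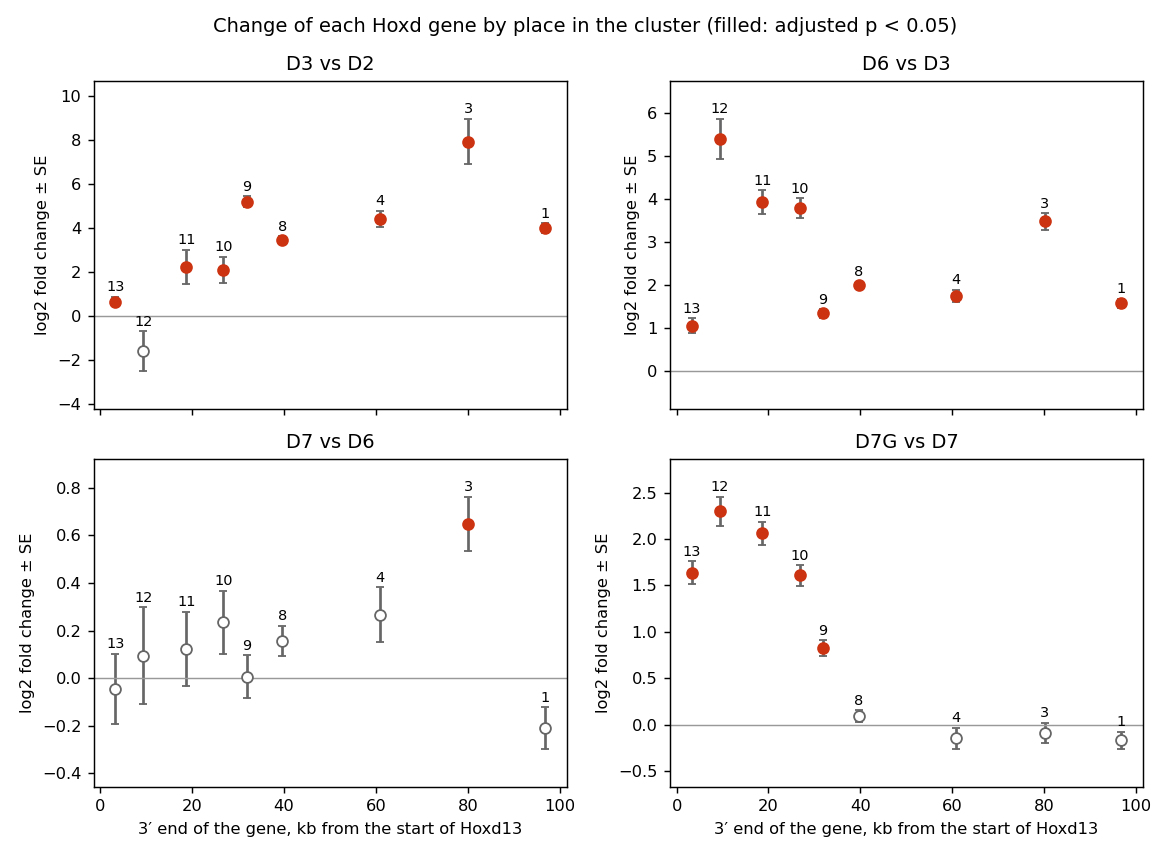
Log2 fold change (± SE) of each Hoxd gene in 4 comparisons, plotted by the distance of its 3′ end in kb from the start of Hoxd13, with paralogue numbers beside the points; filled points passed an adjusted p of 0.05. From D2 to D3 the values are low at the Hoxd13 end, and with Gdf11 (D7G vs D7) the 5 genes at that end range from 0.82 to 2.30 while the other 4 lie between -0.17 and 0.10.

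Along the cluster, Spearman's rho between the log2 fold change and the paralogue number was -0.80 from D2 to D3, 0.18 from D3 to D6, -0.27 from D6 to D7 and 0.93 for D7G against D7. These describe 9 genes that share libraries and carry no p-value. With Gdf11 the values rose step by step from Hoxd8 to Hoxd12, and Hoxd13 broke the order by rising less than Hoxd12 and Hoxd11. The steps were read within libraries as log2 ratios of RPKM between neighbours. The ratio of Hoxd10 to Hoxd9 was -1.41 and -1.36 on D7 and -0.66 and -0.56 in D7G, a difference of 0.78, and that of Hoxd9 to Hoxd8 was 0.03 and 0.02 against 0.72 and 0.79, a difference of 0.73. Those of Hoxd11 to Hoxd10 and of Hoxd12 to Hoxd11 differed by 0.46 and 0.24. The ratio of Hoxd13 to Hoxd12 moved the other way, from 0.99 and 0.83 to 0.31 and 0.20. In these 5 ratios and in that of Hoxd8 to Hoxd4 the 2 groups did not overlap, and in those of Hoxd4 to Hoxd3 and Hoxd3 to Hoxd1 they did. Separation of 2 against 2 libraries is a weak criterion, and its share over other pairs of genes is not given here.

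D7G was also set against D6, the state before treatment, a comparison that shares the D7G libraries with the previous one. Of the 9 members 7 rose and 1 fell (edgeR, adjusted p under 0.05), beside 30.6% and 22.2% of tested genes called higher and lower. Hoxd9 to Hoxd13 rose by 0.83, 1.84, 2.19, 2.39 and 1.59 on the log2 scale. Hoxd3 rose by 0.56 ± 0.12, beside its 0.65 ± 0.11 for D7 against D6. Hoxd8 rose by 0.25 ± 0.06, a call that was lost without D7G replicate 2 (adjusted p = 0.108 in edgeR's test). Hoxd1 fell by 0.38 on the log2 scale (SE 0.09), and Hoxd4 had 0.12 ± 0.12, which was not called.

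Levels per length show how the make-up of the cluster turned over. On D3 Hoxd9 led with 3.63 and 4.36 RPKM, followed by Hoxd1 (2.99 and 2.98) and Hoxd8 (2.21 and 2.26). Hoxd4 and Hoxd13 came next and overlapped each other, and Hoxd11 and Hoxd12 were last, with means of 0.058 and 0.018 RPKM. On D7 Hoxd9 (9.95 and 10.3 RPKM) and Hoxd8 (9.74 and 10.2 RPKM) overlapped at the top, Hoxd1 came next at 7.54 and 7.86, and Hoxd11 and Hoxd12 were still last at 0.980 ± 0.081 and 0.882 ± 0.055 RPKM (SD, n = 2). In D7G Hoxd9 led alone at 16.9 and 19.0 RPKM, and Hoxd10 had moved up from rank 5 to rank 2, at 10.7 and 12.9 RPKM, overlapping Hoxd8 at 10.3 and 11.0. The order below them was Hoxd1, Hoxd13, Hoxd12 and Hoxd11, none overlapping the next, and Hoxd3 and Hoxd4 were now the lowest, overlapping each other. These levels divide by the full exon length. Bases shared on the same strand with other genes make up 62.35% of that length for Hoxd3 and 52.31% for Hoxd4. The places of Hoxd3 and Hoxd4, and ranks counted past them, therefore depend on the length used.

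The 4 genes Hoxd10 to Hoxd13 gave 54.8 ± 8.2% of the summed RPKM of the cluster on D2, where that sum was only 1.19 ± 0.06 RPKM and Hoxd13 alone gave 44.4 ± 5.7%. They gave 10.0 ± 2.8% on D3, 16.9 ± 0.5% on D6, 17.4 ± 0.9% on D7 and 37.6 ± 0.9% in D7G (SD, n = 2). Hoxd1, Hoxd3 and Hoxd4 together gave 35.3 ± 0.9% on D7 and 20.1 ± 0.4% in D7G. Their own sum was 15.0 ± 0.8 RPKM on D7 and 13.6 ± 1.0 RPKM in D7G, so the fall in share came with a rise of the posterior sum from 7.41 ± 0.18 to 25.5 ± 0.8 RPKM.

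**Figure D3:**
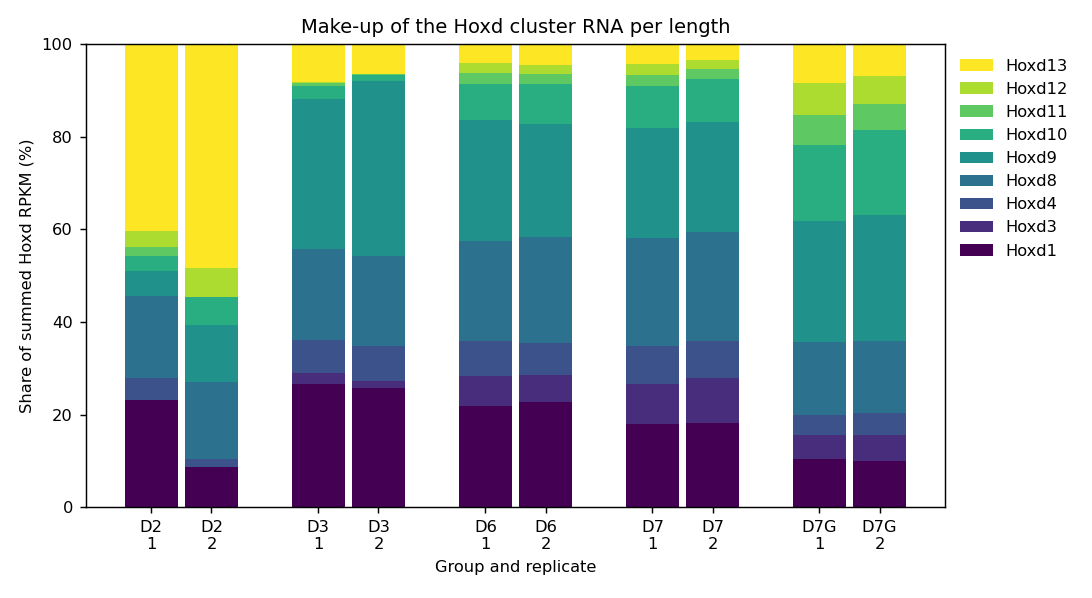
Share of the summed Hoxd RPKM (%) that each gene contributes in each of the 10 libraries, stacked from Hoxd1 at the bottom to Hoxd13 at the top. Hoxd13 makes up 40.4% and 48.4% of a very small total on D2, and Hoxd10 to Hoxd13 together take 38.3% and 37.0% in the D7G libraries against 18.1% and 16.8% on D7.

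Members were set beside the 30 genes of the Hoxa, Hoxb and Hoxc clusters, which lie on other chromosomes and arose with them by duplication. Some of the 30 belong to paralogue groups that have no Hoxd member. With Gdf11, 17 of the 30 rose and 7 fell, beside 22.5% and 18.2% of all tested genes. Their median log2 fold change was 0.29, beside 0.02 over all tested genes. In paralogue groups 10 to 13 every tested gene was called higher, 3 of 3 in Hoxa, 1 of 1 in Hoxb, 4 of 4 in Hoxc and 4 of 4 in Hoxd, with cluster medians of 1.69, 0.90, 1.63 and 1.85. The largest values were near those of Hoxd12, at 2.41 ± 0.15 for Hoxc11, 2.39 ± 0.42 for Hoxc12 and 2.23 ± 0.25 for Hoxa13. In groups 1 to 4 none of the 12 tested genes was called higher, and 5 of them, all in Hoxa, Hoxb or Hoxc, were called lower.

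The clusters differed in groups 5 to 9. In groups 5 to 8, 3 of 3 Hoxa genes, 3 of 3 Hoxc genes and 2 of 4 Hoxb genes were called higher. Hoxb also had 1 gene called lower, and Hoxd8, the only Hoxd gene there, was not called. Over all tested genes 22.5% were called higher and 18.2% lower. In group 9 Hoxd9 rose by 0.82 ± 0.08 on the log2 scale and Hoxc9 by 0.45 ± 0.10, while Hoxa9 had 0.02 ± 0.05 and Hoxb9 fell by 0.50 (SE 0.06). Hoxd9 gave 9.0% and 8.6% of the summed RPKM of the group 9 genes on D7 and 17.6% and 17.4% in D7G. In group 10 Hoxd10 went from 10.5% and 11.5% to 15.9% and 17.5%, with Hoxa10 and Hoxc10 at 1.02 ± 0.07 and 0.87 ± 0.06. In group 13 Hoxd13 went from 51.2% and 47.7% to 57.5% and 56.7%. These shares did not overlap between D7 and D7G, and how often shares of other genes separate in this way is not given here. The share of Hoxd11 in its group (26.7% and 26.0% against 28.6% and 26.3%) and that of Hoxd12 did overlap. In group 8 Hoxc8 rose by 0.47 ± 0.07 and Hoxb8 fell by 0.19 (SE 0.07). Differences in response between clusters were described by these shares and were not tested.

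**Figure D4:**
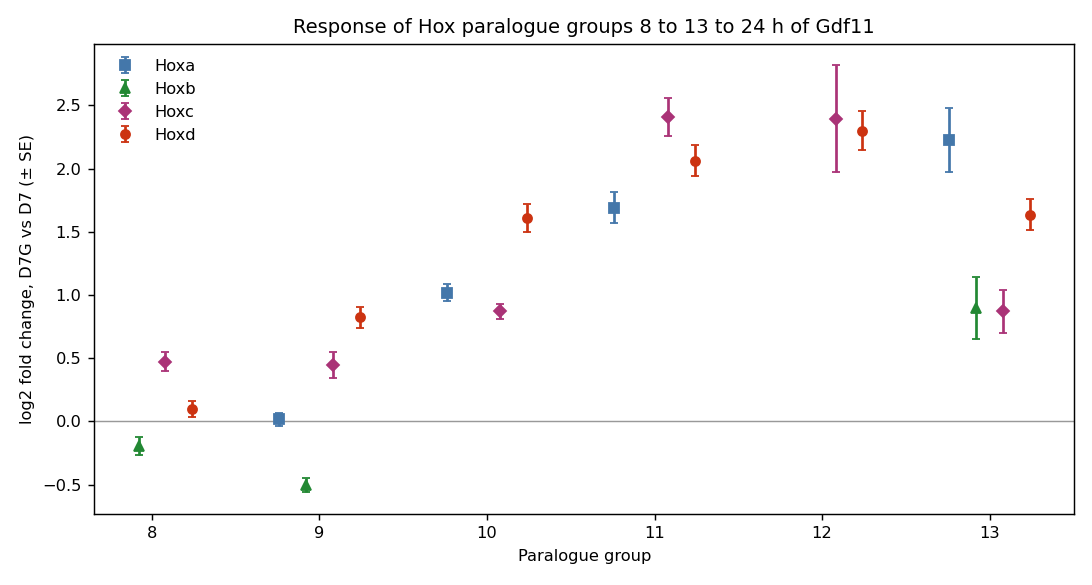
Log2 fold change (± SE) of the Hox genes of paralogue groups 8 to 13 in D7G against D7, with 1 marker per cluster. Groups 10 to 13 lie above 0.8 in every cluster, and group 9 ranges from -0.50 for Hoxb9 to 0.82 for Hoxd9.

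Evx2, the homeobox gene next to Hoxd13, had 0 to 3 counts in every library and was not tested. Lnpk, an endoplasmic reticulum protein gene beyond Evx2, was at 56.1 and 53.1 CPM on D7 and 52.5 and 52.4 CPM in D7G, a log2 fold change of -0.06 ± 0.07. Mtx2, a mitochondrial import gene on the Hoxd1 side, fell by 0.20 (SE 0.04) with Gdf11. Of the 11 tested genes on the list of flanking and antisense genes 2 rose and 4 fell with Gdf11, beside the 22.5% and 18.2% of all tested genes. Haglr, the antisense RNA between Hoxd1 and Hoxd3, fell from 8.29 and 9.39 to 6.74 and 6.41 CPM, by 0.43 on the log2 scale. Hoxd3os1, antisense in the Hoxd3 to Hoxd8 interval, rose from 2.78 and 2.35 to 3.83 and 5.10 CPM, by 0.80 ± 0.19. Since strand use in counting is not given, reads of these RNAs and of the Hoxd3 and Hoxd4 exons they face cannot be told apart. Beside the same shares, within 1 Mb of the cluster 0 of 5 tested genes rose and 2 fell on the Hoxd13 side, and 3 of 8 rose and 2 fell on the Hoxd1 side. Of 5 tested noncoding or antisense genes inside the cluster 2 rose and 2 fell. The next 4 noncoding RNAs were chosen after their values were seen, and 3 of them rose with Gdf11. Gm28230, whose exons overlap those of Hoxd3 and Hoxd4, fell from 128 and 120 counts to 63 and 78, by 0.76 (SE 0.17). Gm14396, between Hoxd10 and Hoxd9, went from 39 and 28 counts to 72 and 104, by 1.45 ± 0.24. Gm13652 and 2600014E21Rik, 360 kb and 374 kb beyond Hoxd1, went from 27 and 19 to 63 and 69 counts and from 5 and 5 to 32 and 33 counts.

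Regulators known to act on Hox timing were read in the same comparisons. From D2 to D3 12 of 16 tested rose and 4 fell, beside 29.6% and 28.9% of all tested genes. Cdx2, Cdx1 and Cdx4, caudal factors that activate Hox genes, rose by 8.02, 7.93 and 4.87 on the log2 scale, and T and Wnt3a by 7.97 and 7.58 (SE 0.07 to 0.23). From D3 to D6, 5 of 16 rose and 11 fell, beside 32.4% and 33.3% of all genes, with Wnt3a at -5.03, T at -2.47, Fgf8 at -1.49 and Cdx2 at -0.47 (SE 0.04 to 0.17). Nr6a1, a nuclear receptor of the trunk, rose by 0.80 to D3 and fell by 1.42 to D6. From D6 to D7 without Gdf11, 2 of 16 rose and 9 fell, beside 20.5% and 15.6% of all genes. Cdx2 was at -1.41, Cdx1 at -1.12, T at -1.08, Cdx4 at -0.83, Lin28a at -0.78 and Nr6a1 at -0.46. Several of these regulators were therefore already falling before any Gdf11 was added or in its absence. With Gdf11, 5 of 16 rose and 9 fell, beside 22.5% and 18.2% of all genes. Cdx1 had 0.11 ± 0.07 and was not called. Cdx4 fell from 38.1 and 38.8 to 13.1 and 13.9 CPM, by 1.51. Lin28a and Lin28b, RNA-binding proteins that hold back developmental timing, fell by 0.90 and 0.83, Cdx2 by 0.75 and Nr6a1 by 0.63 (132 and 139 against 89.4 and 85.6 CPM), with SE of 0.04 to 0.06. Wnt5a rose by 1.13 ± 0.08 and T by 0.56 ± 0.06. Gdf11 itself was at 53.7 and 50.3 CPM on D7 and 41.5 and 44.3 CPM in D7G, a log2 fold change of -0.28 ± 0.06 that was called lower.

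The Pbx, Meis and Pknox genes encode cofactors that bind DNA with Hox proteins. From D3 to D6, 8 of 9 rose and 1 fell (32.4% and 33.3% of all genes), led by Meis1 at 2.54 ± 0.07 and Meis2 at 1.83 ± 0.06. With Gdf11, 0 of 9 rose and 5 fell (22.5% and 18.2% of all genes). Pknox2 fell from 51.9 and 53.1 to 16.9 and 17.1 CPM, by 1.63, Meis3 by 0.73 and Meis2 by 0.50 (SE 0.05 to 0.07). Genes of other cell types moved in both directions with Gdf11. Of the spinal cord progenitor genes 6 of 11 tested fell and 2 rose (summed 376 and 388 CPM on D7, 269 and 282 CPM in D7G), and of the primed epiblast genes 7 of 10 rose and 1 fell (summed 343 and 343 CPM, then 439 and 406 CPM). Prrx1, a mesenchymal and limb bud factor, rose from 50.8 and 47.0 to 193 and 220 CPM, Pitx1, a hindlimb factor, by 1.01 ± 0.08 and the fibroblast collagen Col1a1 by 3.14 ± 0.08. Of the lateral plate genes, Foxf1, Isl1 and Hand2 stayed under 2 CPM in both groups, and no gene of the lateral plate or fibroblast lists was at 0 in both libraries of D7 or D7G. Summed neuron genes were at 165 and 168 CPM on D7 and 292 and 296 CPM in D7G, with 6 of 10 called higher. Their part in the Hoxd values was not tested. Summed fibroblast genes were at 148 and 185 CPM on D2 and 308 and 301 CPM on D3, and the part of such RNA in the Hoxd13 counts on D2 was not tested.

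Genes that followed each member most closely were found by Pearson correlation of log2 CPM over the 10 libraries, leaving out Hoxd genes and clone names. Hoxd4 was closest to Msx1 (r = 0.999), Hoxd8 to Plagl1 (0.999), Hoxd3 to Ano1 (0.997), Hoxd1 to Btla (0.996) and Hoxd9 to Il6ra (0.996). Hoxd10 was closest to Ptpro (0.996), Hoxd11 to Cacna1c (0.994), Hoxd12 to Slc36a4 (0.990) and Hoxd13 to Tmem119 (0.991). Hox genes of other clusters were among the 3 closest for Hoxd1 (Hoxb4), Hoxd3 (Hoxa9), Hoxd4 (Hoxa3) and Hoxd9 (Hoxb5 and Hoxb6). The 10 libraries are 5 groups of 2. Of the 27 pairs (3 per member), 16 stayed with a smaller prior count and 0 with Spearman's correlation.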

How the data were processed

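RNA from 10 libraries (5 groups, 2 replicates each) were analysed from the deposited raw counts per gene symbol. The tools named per the submitters' processing notes are featureCounts 1.6.3, HISAT2 2.1.0, STAR and limma, with the build mm10, and their roles, strand setting and treatment of overlapping genes are not given in the sources used here. The authors' deposited second table of counts per Ensembl gene was used as an alternative (a symbol was found for 98.4% of 55298 genes). The authors' deposited table with CPM, log2 fold changes and p-values lists 14983 genes including all 9 members. It was used for no test. Gene positions and lengths came from the deposited count table, and promoters from RefSeq (GRCm38.p6).

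Counts were fitted with edgeR 4.0.16 in R 4.3.3 (glmQLFit and glmQLFTest, TMM scaling, default filterByExpr, 1 coefficient per group, all 10 libraries in 1 fit). This left 18818 genes, 5 residual degrees of freedom and a common coefficient of variation of 3.34% between replicates. Benjamini-Hochberg adjustment ran over the 18818 genes in each comparison, with calls made under 0.05. CPM are counts over the TMM-scaled library size, and RPKM divide these by the exon length in the table. Counting intervals are exact at 95%, and floors are 3 counts. The fit was tested on simulated counts. Alternatives used DESeq2 1.42.0, limma 3.58.1 (voom), other scalings, filters, tables and samples, and each library left out. All 9 members are described, and other list genes were named if called, among the 6 with the largest change and at 5 CPM or more in a group, besides Nr6a1, Lin28a, Cdx2, T, Gdf11, Sox2 and Tbx6. Genes named outside these rules are Lnpk, Evx2, Foxf1, Isl1 and Hand2, besides those said to be chosen later. Some values are not reported here. The members and lists were chosen with earlier results of these data known.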

Additional observations from a re-analysis of the deposited data

How the results depend on the processing

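The 847 alternative values of the members' log2 fold changes kept direction and call in 806 cases, lost a call in 8, gained one in 13 and changed sign in 20, and none of the values that changed sign was called. The counts of members called for D6 against D3, D7G against D7 and D7G against D6 stayed within 1.5 times under every alternative run. For D7 against D6, 3 members were called higher with library totals only, and 1 was called lower with a filter of 1 CPM in 2 libraries, with the second count table and with only the 2 groups compared. With 1 library left out, members called from D2 to D3 ranged from 5 to 8 higher and 0 to 1 lower, and from D6 to D7 from 1 to 2 higher and 0 to 1 lower. In the same runs rho ranged from -0.82 to -0.65 (D3 against D2), -0.40 to -0.067 (D7 against D6) and 0.88 to 0.93 (D7G against D7), and the onset of Hoxd3 from day 3 to 6.

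The share of summed RPKM from Hoxd10 to Hoxd13 was 18.2% on D6, 19.1% on D7 and 39.4% in D7G in the second table. It was 14.8%, 14.6% and 34.1% with lengths that leave out bases shared on the same strand with other genes. This alternative was chosen after seeing the data. By CPM the share was 16.4% on D7. At 0.5 CPM the onset was day 3 for Hoxd3 and day 2 for Hoxd8. At 5 CPM it was day 6 for Hoxd4 and day 7, in D7G, for Hoxd11, Hoxd12 and Hoxd13. Of the 27 pairs of a member and a closest gene, 16 were shared with a prior count of 0.5 and 0 with Spearman's correlation. The Hoxd8 call in D7G against D6 was also lost with DESeq2 (0.23, DESeq2 adjusted p = 0.0528).

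Signs changed for Hoxd9 from D6 to D7 with DESeq2 (-0.0070), RLE factors (-0.0068), no filter (-0.025), a filter of 1 CPM (-0.022) and the 2 groups alone (-0.023), and, with 1 library left out, its values ranged from -0.094 to 0.107. Left-out ranges over the same day also crossed 0 for Hoxd11 (-0.0027 to 0.173), Hoxd12 (-0.095 to 0.304) and Hoxd13 (-0.233 to 0.058). They did so for Hoxd3 in D7G against D7 (-0.237 to 0.023) and for Hoxd4 in D7G against D6 (-0.084 to 0.259). The causes were not tested. Correlations of replicate differences between groups, over all tested genes, were -0.0418 to 0.0487. Counting noise in genes with few counts also draws such values towards 0, so they cannot tell whether replicate numbers pair the samples. With the replicate block the members called higher were 8, 9, 1, 5 and 7 in the 5 comparisons, in the order D3 against D2, D6 against D3, D7 against D6, D7G against D7 and D7G against D6. Levels under 10 counts, as for most members on D2 and for Hoxd12 on D3, give folds that depth does not fix.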
